A study of Homo sapiens with 12 samples.

Results

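The aminoacyl-tRNA synthetases and the scaffold proteins that hold some of them together were followed as ribosome footprints in lymphoblastoid cell lines with and without arsenite. The set was a list of 38 gene symbols: 19 cytosolic enzymes, 16 mitochondrial enzymes and the 3 scaffold proteins AIMP1, AIMP2 and EEF1E1. Of these, 37 were among the 12357 genes of the deposited count table, and VARS2 was not analysed here. The list holds no aspartyl-tRNA synthetase.

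The cells were GM18505, GM19193 and GM19204, lymphoblastoid B cell lines immortalized with Epstein-Barr virus and labelled as wild type. From each line 1 culture served as control and 1 received sodium arsenite, so that n = 3 cell lines per condition. Every culture was sequenced as 2 libraries, T and U, of which only T went through CRISPR removal of rRNA, and the counts of both were summed. An immortalized line stands for 1 donor and grows in culture, so differences between the lines cannot be told apart from differences between their cultures.

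Each synthetase joins an amino acid to the tRNA that carries it to the ribosome, which makes these enzymes a housekeeping need of every translating cell. Cytosol and mitochondria use separate enzymes for most amino acids, and nuclear genes encode both kinds. KARS1 and GARS1 are known to supply the enzyme of both compartments, and EPRS1 joins a glutamyl- and a prolyl-tRNA synthetase in a single polypeptide. FARSA and FARSB are subunits of the same phenylalanyl-tRNA synthetase. In the multisynthetase complex, AIMP1, AIMP2 and EEF1E1 hold EPRS1, IARS1, KARS1, LARS1, MARS1, QARS1 and RARS1 together with the aspartyl enzyme. Arsenite causes oxidative stress and the phosphorylation of the initiation factor eIF2α, which lowers initiation on most mRNAs.

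Control cultures held 5114266 to 6467049 counts in genes and arsenite cultures 1326231 to 2448947. Amounts were compared on a spike-in scale, for which the summed count of a gene was divided by a factor from 7 synthetic RNA oligomers added to each sample. These factors had standard errors from 0.0733 to 0.163 on the log2 scale. All 12 B cell markers of a fixed list were in the table and together held 11508 to 15550 CPM (counts per 1000000 gene counts) under control and 9298 to 12282 under arsenite. Of 14 markers of other cells, only EPCAM, COL1A1, COL1A2 and GFAP were in the table, which holds no gene without a read in any library. Their sum was 5.41 to 11.9 CPM under control and 18.9 to 114 under arsenite, where COL1A2 alone gave 97.6 in GM19193, and the part of this in the results below was not tested.

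In the control cultures, cytosolic enzymes had more footprints per coding length than mitochondrial enzymes. The median level was 293 counts per 1000 codons and per 1000000 gene counts over the 19 cytosolic enzymes and 64.5 over the 15 mitochondrial enzymes, beside 56.8 over 10872 protein-coding genes. WARS1, the tryptophanyl enzyme, had the highest level at 871 ± 313 (SD, n = 3 cell lines). The threonyl enzyme TARS1 followed at 545 ± 69.0 and the lysyl enzyme KARS1 at 511 ± 21.5, and the ranges of these 3 genes overlapped from each to the next. CARS1 was the lowest cytosolic enzyme at 86.0 ± 9.69, below IARS2, YARS2 and TARS2, the highest of the mitochondrial class at 109 to 114. At the lower end, AARS2 reached 27.1 ± 5.67, PARS2 12.4 ± 1.54 and SARS2 9.15 ± 2.52, and the ranges of PARS2 and SARS2 overlapped. The scaffold proteins stood at 322 ± 12.3 for AIMP1, 209 ± 8.62 for AIMP2 and 65.7 ± 15 for EEF1E1.

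**Figure D1:**
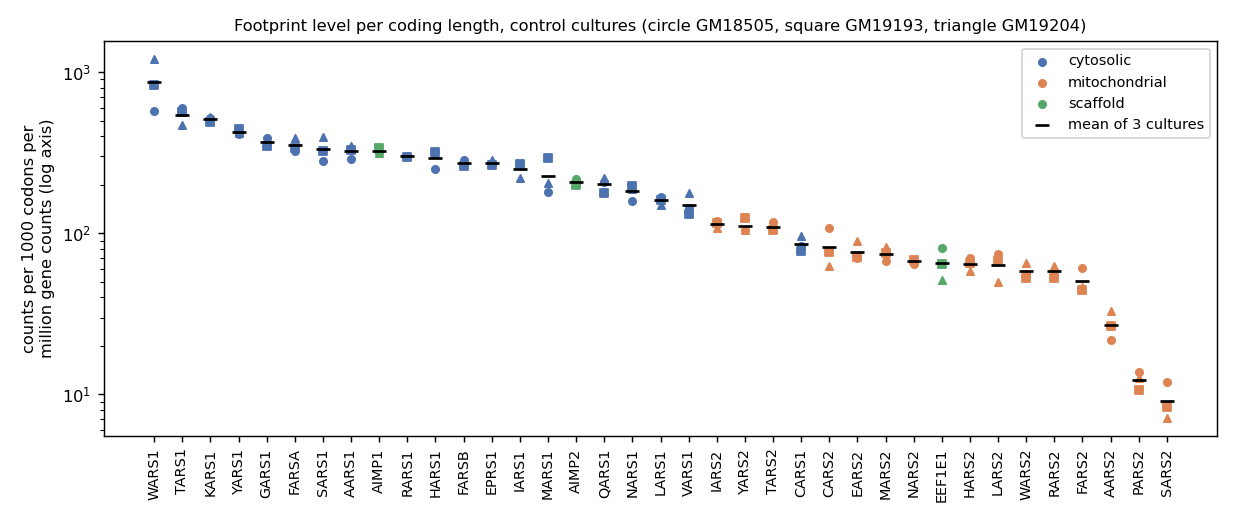
Footprint level of each of 37 genes in the 3 control cultures, in counts per 1000 codons and per 1000000 gene counts on a log axis, ordered by the mean (black bar), with colours for the classes and marker shapes for the cell lines. Cytosolic enzymes fill most of the left side and AARS2, PARS2 and SARS2 the right end, at 27.1, 12.4 and 9.15. SARS2 and EEF1E1 have the largest shares of exonic bases in another gene on the same strand, at 48.2% and 18.8%, so their levels may miss reads. Smaller shares, of 4.09% or less, were found for HARS2, EARS2, TARS2, QARS1, HARS1 and MARS1.

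Under arsenite, footprints on all 37 genes fell on the spike-in scale and none rose, with a median log2 fold change of −2.54. In the same quasi-likelihood test of edgeR, blocked by cell line, 74.1% of all genes fell, with a median of −1.78. The share that fell was higher among well-covered genes: of 7871 protein-coding genes with 50 or more counts per culture on average, 92.3% fell, with a median of −2.13. The count of 37 therefore stands against a background in which most genes fell, and 35 of the 37 lay below the median of all genes. No member rose at an unadjusted p under 0.05 either, and DESeq2, limma on unnormalized counts and limma on RUVg values gave 0 rises and 35, 37 and 37 falls. Both limma fits took the T and the U library of a culture as separate samples, which overstates the number of replicates. DESeq2 used the 6 summed cultures and did not call AARS2 and SARS2. Every arsenite culture was below every control culture for 35 members and for 68.7% of all genes, so such a gap between the groups, given below for single genes, was common in the whole table. This share was not taken for the well-covered genes alone, among which falls were more common. Footprints alone do not separate less mRNA from fewer ribosomes per mRNA. The oligomers were added in proportion to the mass of digested RNA, so the scale is per amount of that RNA and not per cell, and in bulk samples fewer cells of a type and less RNA per cell cannot be told apart.

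By class, the median log2 fold change on the spike-in scale was −2.54 for the 19 cytosolic enzymes, −2.31 for the 15 mitochondrial enzymes and −2.88 for the 3 scaffold proteins. Summed over each class, spike-in scaled counts under arsenite were 15.8%, 24.7% and 13.3% of control for the cytosolic enzymes in GM18505, GM19193 and GM19204. The mitochondrial sums were 17.7%, 33.1% and 14.0% of control in the same order, and all genes together 29.4%, 41.7% and 25.5%. GM19193 was the line with the smallest fall for 36 of the 37 genes, and for the median of all genes as well, at −1.30 against −1.89 in GM18505 and −2.23 in GM19204.

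The share of all gene counts that fell on these genes needs no scale. Synthetases and scaffold proteins together took 0.521% ± 0.0186 (SD, n = 3 cell lines) of gene counts under control and 0.290% ± 0.0259 under arsenite. Cytosolic enzymes went from 0.441% ± 0.0213 to 0.243% ± 0.0184, a mean log2 ratio of −0.86 ± 0.0977. Mitochondrial enzymes went from 0.0615% ± 0.00233 to 0.0398% ± 0.00789, with log2 ratios by cell line of −0.73 (GM18505), −0.33 (GM19193) and −0.87 (GM19204). Scaffold proteins went from 0.0179% ± 0.000403 to 0.00747% ± 0.00129, a mean log2 ratio of −1.27 ± 0.246. In every class the 3 arsenite shares lay below the 3 control shares. No shares of other gene sets are given here, and a loss relative to other genes was common. On the TMM scale described below, 40.6% of the well-covered protein-coding genes fell and 15.2% rose, with a median of −0.31. A share over members gets no test, since the genes were not drawn by chance.

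**Figure D2:**
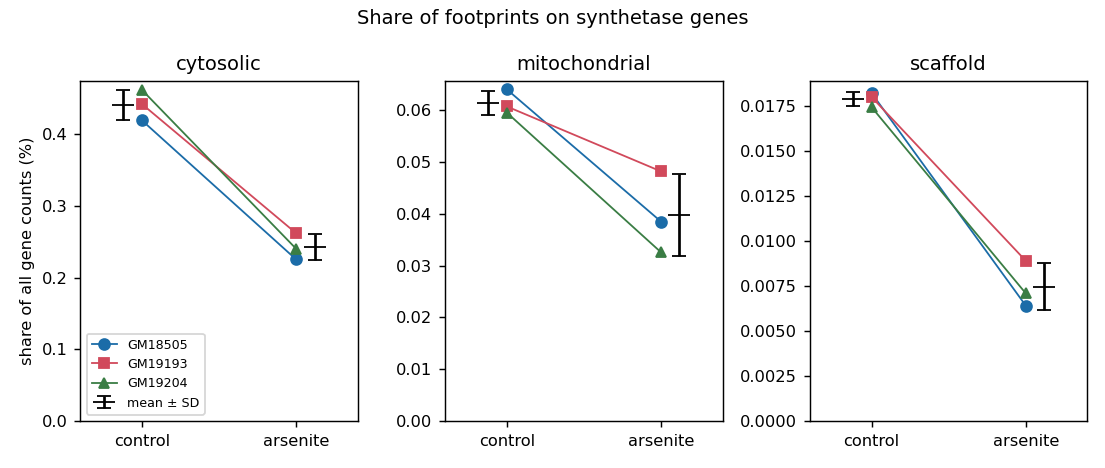
Share of all gene counts, in percent, on cytosolic enzymes, mitochondrial enzymes and scaffold proteins, with 1 line per cell line from control to arsenite and the mean ± SD beside each condition; each panel has its own axis from 0. The arsenite values lie below the control values in all panels, and GM19193 has the highest arsenite share in each panel.

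Among the cytosolic enzymes, the isoleucyl, lysyl, glycyl and valyl enzymes had the lowest fold changes, and the glutaminyl, cysteinyl, tryptophanyl and asparaginyl enzymes the highest. Values are spike-in scaled counts in the order GM18505, GM19193 and GM19204. The SE of a fold change was computed back from the edgeR test statistic. That test borrows variability across genes, so the SE is not the spread of a gene over the cell lines. IARS1 (ENSG00000196305, chr9:92210207-92293854, GRCh38), the isoleucyl enzyme of the complex, had 1760.2, 2047 and 1929 under control and 195, 358 and 194 under arsenite. Its log2 fold change was −3.00 (SE 0.386), the lowest of all the enzymes. KARS1 (ENSG00000065427, chr16:75627474-75648643) had 1640.4, 1764 and 2201 against 192, 353 and 245, a log2 fold change of −2.86 (SE 0.384). In both genes each arsenite culture lay below each control culture, and the arsenite culture of GM19193 was the highest of the 3.

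GARS1 (ENSG00000106105, chr7:30580533-30634033), the glycyl enzyme, had 1522, 1549.5 and 1916 under control and 195, 345 and 179 under arsenite, a log2 fold change of −2.85 (SE 0.386). The valyl enzyme VARS1 (ENSG00000204394, chr6:31777518-31795752) had 956, 1011 and 1558 against 135, 239 and 134, or −2.81 (SE 0.388) on the log2 scale. Neither gene had overlapping groups. At the other end of the class, QARS1 (ENSG00000172053, chr3:49095932-49105130), the glutaminyl enzyme of the complex, had 849, 836 and 1194 under control and 189, 236 and 164 under arsenite, a log2 fold change of −2.29 (SE 0.377). CARS1 (ENSG00000110619, chr11:3000922-3057613), the cysteinyl enzyme, had 368, 393 and 561 against 65.9, 101 and 108, a log2 fold change of −2.27 (SE 0.395).

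WARS1 (ENSG00000140105, chr14:100333790-100376805) had 1439.7, 2391 and 3947 under control, the widest spread between cell lines among the cytosolic enzymes, and 282, 728 and 636 under arsenite. Its log2 fold change of −2.23 (SE 0.376) was close to those of QARS1 and CARS1. NARS1 (ENSG00000134440, chr18:57600656-57622213), the asparaginyl enzyme, had 463, 657 and 721 against 102, 219 and 145, a log2 fold change of −2.02 (SE 0.377) and the smallest fall of the class. The groups of all 4 genes were still apart. The other 11 cytosolic enzymes lay between −2.71 for FARSB and −2.29 for LARS1, and the paired subunits FARSB and FARSA stood next to each other at −2.71 and −2.69. Adjusted p-values of the cytosolic class in edgeR were all at most 2.5e-07. The test took the spike-in factors as known and borrowed variability across genes, so these values do not measure agreement between the lines. Without GM18505 the adjusted p in edgeR was 0.0097 for IARS1 and 0.039 for NARS1, and without GM19193 it was 1.4e-36 for IARS1. All 19 cytosolic enzymes were still called with any line left out.

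**Figure D3:**
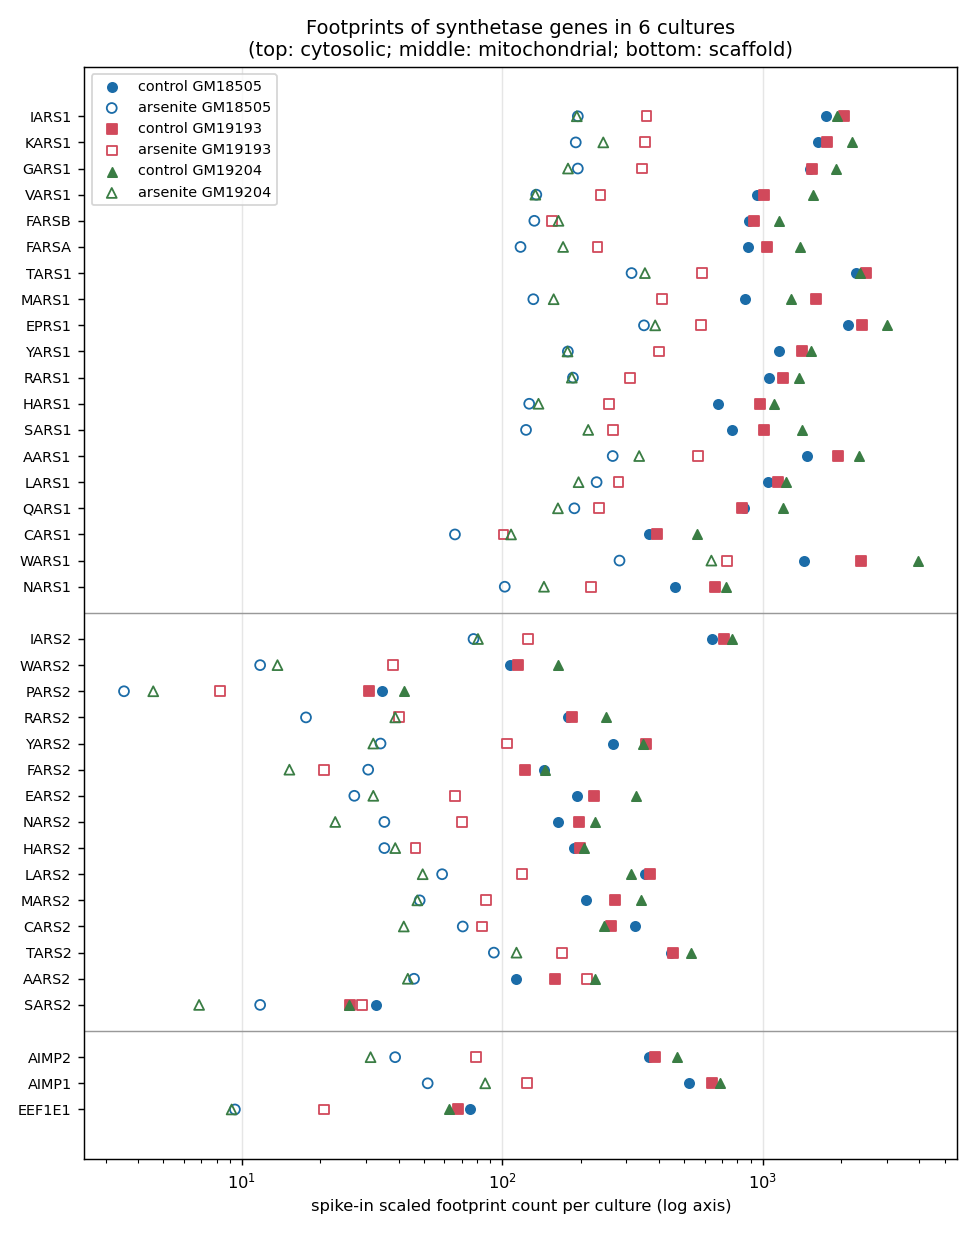
Spike-in scaled footprint counts of 37 genes on a log axis, with filled symbols for control and open symbols for arsenite cultures and a colour and shape for each cell line; genes are ordered by log2 fold change within the cytosolic, mitochondrial and scaffold classes. Open and filled symbols are apart for 35 of the 37 genes, as for 68.7% of all genes, and overlap for AARS2 and SARS2, where the arsenite culture of GM19193 lies among the control cultures.

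In the mitochondrial class, IARS2 (ENSG00000067704, chr1:220094132-220148041), the isoleucyl enzyme, had 639, 713 and 763 under control and 77.6, 126 and 80.8 under arsenite. With a log2 fold change of −2.92 (SE 0.391) it was the lowest of its class, as IARS1 was among the cytosolic enzymes. WARS2 (ENSG00000116874, chr1:119031216-119140654), the tryptophanyl enzyme, had 107, 115 and 164 against 11.8, 38.2 and 13.7, a log2 fold change of −2.73 (SE 0.441). PARS2 (ENSG00000162396, chr1:54756898-54764523), the prolyl enzyme, had 34.6, 30.8 and 42.1 against 3.53, 8.26 and 4.57, which are at most 41 reads in a culture, and a log2 fold change of −2.72 (SE 0.496). RARS2 (ENSG00000146282, chr6:87513459-87590028), the arginyl enzyme, had 179.6, 185 and 252 against 17.6, 40.3 and 38.9, a log2 fold change of −2.71 (SE 0.423). The groups of these 4 genes did not overlap, and their arsenite values were highest in GM19193.

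CARS2 (ENSG00000134905, chr13:110641412-110713603), the cysteinyl enzyme, had 323, 261 and 247 under control and 70.6, 83.7 and 41.9 under arsenite, a log2 fold change of −2.13 (SE 0.405). TARS2 (ENSG00000143374, chr1:150487414-150507602), the threonyl enzyme, had 446, 454 and 531 against 92.9, 169 and 114, a log2 fold change of −1.97 (SE 0.386). Both fell less than the other mitochondrial enzymes apart from AARS2 and SARS2, with groups that did not overlap. The 7 enzymes in between ran from −2.70 for YARS2 to −2.20 for MARS2.

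AARS2 and SARS2, the mitochondrial alanyl and seryl enzymes, were the 2 members above the median of all genes. AARS2 (ENSG00000124608, chr6:44298731-44313347) had 113, 159 and 227 under control and 45.9, 212 and 43.4 under arsenite. Its footprints were higher under arsenite than under control in GM19193, with 205 reads against 134, and lower in GM18505, with 39 against 134, and in GM19204, with 57 against 210. The log2 fold change was −1.07 (SE 0.416), with an adjusted p of 0.014 in edgeR, and by cell line −1.30, 0.41 and −2.38. The SD of these values over the lines was 1.41, a spread of single lines that the SE does not measure. SARS2 (ENSG00000104835, chr19:38915266-38930763) had 32.9, 26.1 and 25.9 against 11.8, 28.9 and 6.86, from 9 to 39 reads in a culture, and a log2 fold change of −1.004 (SE 0.451) with an adjusted p of 0.035 in edgeR. In both genes the groups overlapped through the arsenite culture of GM19193.

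The calls of AARS2 and SARS2 depended on which lines and settings were used. Without GM18505 the log2 fold changes were −0.96 for AARS2 and −0.79 for SARS2, with adjusted p of 0.32 and 0.28 in edgeR, and without GM19204 they were −0.39 and −0.61, with adjusted p of 0.49 and 0.29. Without GM19193 the falls were larger, at −1.88 and −1.68, with adjusted p of 5.2e-09 and 0.0014 in edgeR. In the lines left, GM18505 and GM19204, AARS2 stood at −1.30 and −2.38. The test borrows variability across genes, so a p of this size does not measure agreement between these lines. Over all alternatives the adjusted p ran from 5.2e-09 to 0.49 for AARS2 and from 0.0014 to 0.46 for SARS2, and DESeq2 gave 0.17 and 0.097. In GENCODE release 44, 48.2% of the exonic bases of SARS2 are also exonic in ENSG00000269547, a gene on the same strand, and 4.48% of those of AARS2 in TMEM151B on the other strand, so reads there may be assigned to either gene or dropped. Whether the counting used strand is not stated in these sources. The largest shares of exonic bases in another gene of the table were those of AIMP2 with 29.1% in EIF2AK1 and HARS1 with 7.70% in WDR55, both on the opposite strand, and HARS1 and HARS2 share 108 exonic bases where they start head to head.

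Each of the scaffold proteins fell. AIMP2 (ENSG00000106305, chr7:6009255-6023834) had 368, 388 and 471 under control and 38.8, 79.5 and 31.2 under arsenite, and its log2 fold change of −3.13 (SE 0.422) was the lowest of the 37 genes. AIMP1 (ENSG00000164022, chr4:106315544-106349456), which is also the precursor of the cytokine EMAP II, had 523, 637 and 684 against 51.8, 125 and 86.1, a log2 fold change of −2.88 (SE 0.395). EEF1E1 (ENSG00000124802, chr6:8073360-8102559), a short protein related to elongation factors, had 75.1, 67.6 and 62.6 against 9.41, 20.7 and 9.14, a log2 fold change of −2.44 (SE 0.449). None of the 3 had overlapping groups. The 7 listed enzymes that the scaffold binds had a median of −2.54 and a range from −3.00 to −2.29, and the 12 cytosolic enzymes outside the complex a median of −2.49 and a range from −2.85 to −2.02.

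To see which genes moved more than the bulk of genes, the same counts were scaled by TMM, which takes out the shift shared by most genes. The median log2 fold change of all genes was then 0.03, and 26.6% of all genes fell and 27.8% rose relative to the bulk. Of the 37 members, 27 fell and none rose, with a median of −0.72. Among the well-covered protein-coding genes, 40.6% fell and 15.2% rose, with a median of −0.31. AARS2 was the single gene with a rise at an unadjusted p under 0.05, and DESeq2 on the same scale gave 25 falls and 0 rises. All 3 lines were below 0 for 34 of the 37 members, against 36.5% of all genes, a share not taken for the well-covered genes alone.

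Relative to the bulk, 18 of 19 cytosolic enzymes fell, from −1.18 for IARS1 to −0.41 for WARS1, and NARS1 at −0.20 did not pass the test (adjusted p = 0.13 in edgeR). Over the cell lines these cytosolic fold changes had a median SD of 0.129, from 0.0211 for EPRS1, at −0.70, −0.74 and −0.73, to 0.341 for FARSB, at −0.83, −1.26 and −0.58. Of 15 mitochondrial enzymes, 7 fell: IARS2, WARS2, YARS2, RARS2, FARS2, EARS2 and LARS2. The median SD over the lines was 0.396 here, and the median count of a mitochondrial enzyme was 42 per arsenite culture against 228 for a cytosolic enzyme. A fall past the threshold in 1 class and not in the other does not show that the classes differ, and the difference between the classes was not tested. AIMP1 and AIMP2 fell, at −1.05 and −1.31, and EEF1E1 did not pass the test at −0.64 with an adjusted p of 0.11 in edgeR.

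AARS2 at 0.78 and SARS2 at 0.79 were the only members above 0 on this scale, with adjusted p of 0.072 and 0.11 in edgeR, while with TMM factors from genes averaging 50 or more counts NARS1 at 0.06 and TARS2 at 0.12 were above 0 as well. By cell line, AARS2 stood at 0.61, 1.73 and −0.16 and SARS2 at 0.43, 1.47 and 0.31. The count of 27 depended on the scale and on the pairing: it was 19 with TMM factors from genes averaging 50 or more counts, where AARS2 and SARS2 rose, and 19 without the cell line as a block. Leaving out GM18505, GM19193 or GM19204 gave 23, 26 and 23 falls, and AARS2 rose without GM19204. The mitochondrial count of 7 went to 4 without GM18505 and to 3 without GM19204.

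**Figure D4:**
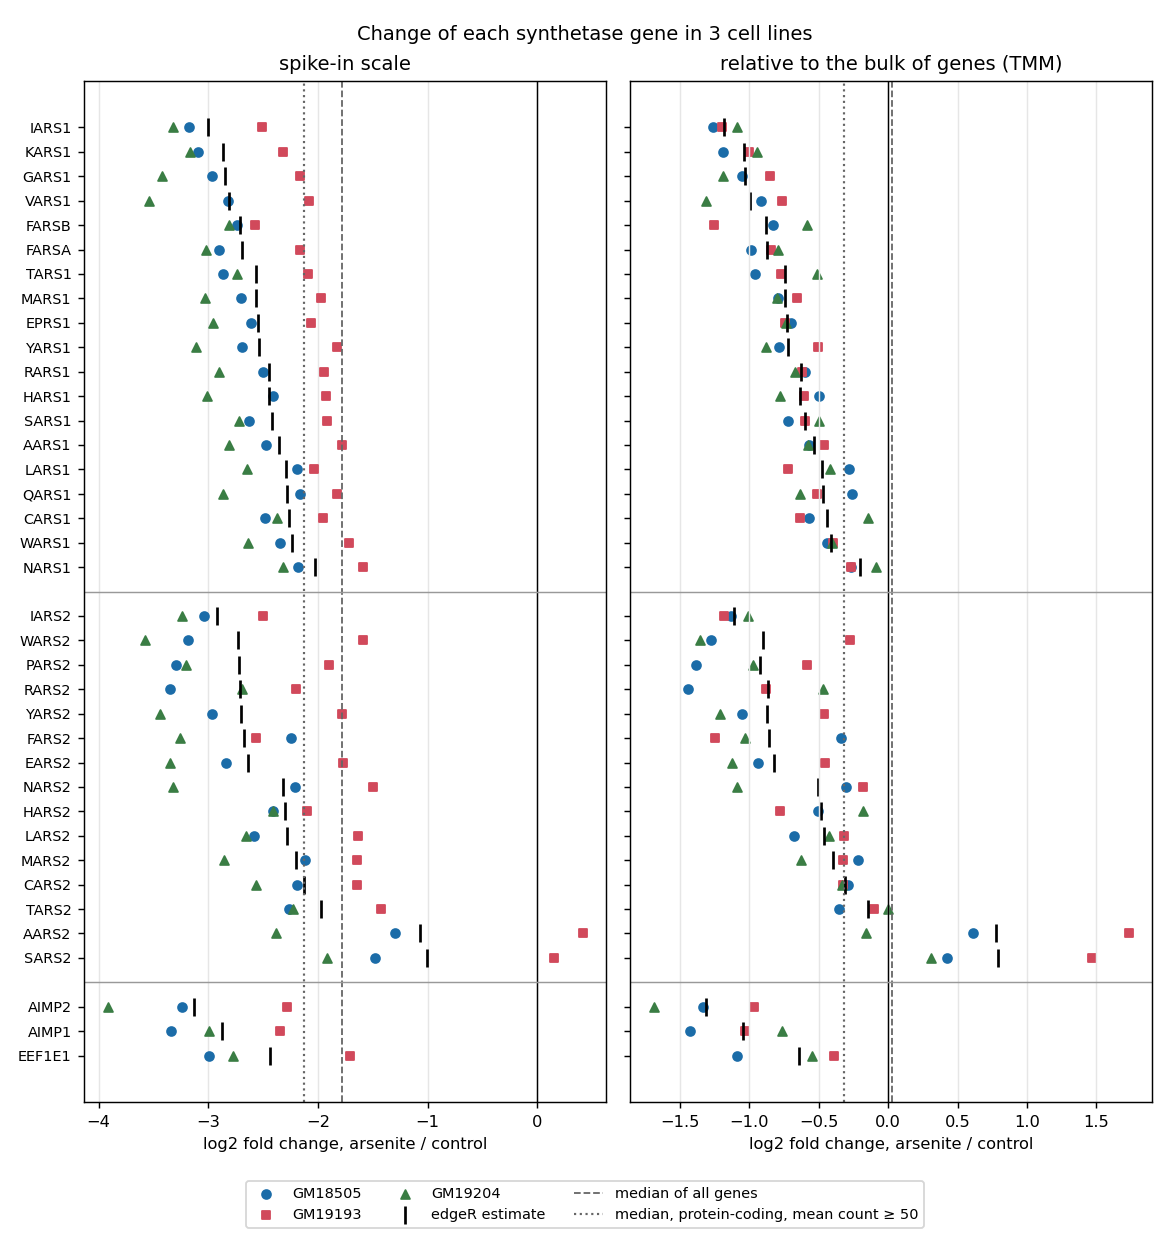
Log2 fold change of arsenite over control for 37 genes on the spike-in scale (left) and relative to the bulk of genes (right), with a coloured symbol for each cell line, a black bar for the edgeR estimate, and vertical lines at 0, at the median of all genes (dashed) and at the median of protein-coding genes averaging 50 or more counts (dotted). On the left all estimates are below 0; on the right, with TMM factors from all genes, AARS2 and SARS2 alone are above 0 (NARS1 and TARS2 joined them with factors from genes averaging 50 or more counts), at 0.78 and 0.79.

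Enzymes for the same amino acid in cytosol and mitochondria could be set side by side for 14 amino acids, since the scale cancels out of their difference. The cytosolic minus mitochondrial difference of log2 fold changes had a median of −0.04 over the 14 pairs and was below 0 in 8. In 5 pairs it was below 0 in all 3 cell lines: serine, alanine, threonine, methionine and isoleucine. With both libraries summed no pair was above 0 in all 3, and 9 pairs changed sign between the lines. The difference was −1.34 ± 0.651 (SD, n = 3 cell lines) for SARS1 and SARS2 and −1.26 ± 0.887 for AARS1 and AARS2. For TARS1 and TARS2 it was −0.59 ± 0.0777, with −0.61, −0.67 and −0.51 in the 3 lines, but with T libraries alone the value of GM19193 was −0.24 and with U libraries alone −0.87. IARS1 and IARS2 differed by −0.07 ± 0.0588. By library kind, 2 of the 5 pairs, alanine and threonine, were below 0 in all 3 lines with T alone and with U alone. With T alone serine, methionine and isoleucine were above 0 in GM19204, at 0.59, 0.05 and 0.28, and with U alone isoleucine was above 0 in GM19193, at 0.02. At the other end, WARS1 fell less than WARS2 in GM18505 and GM19204, by 0.84 and 0.95, and not in GM19193, at −0.12. This pair depended on the library kind, with a mean of 0.05 and values of 0.21, −0.54 and 0.47 for T alone, and 1.39, 0.08 and 1.33 for U alone, where it was the 1 pair above 0 in all 3 lines. Cysteine was below 0 in all 3 lines with T alone, at −0.94, −0.20 and −0.0022. These differences are a description with no test.

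**Figure D5:**
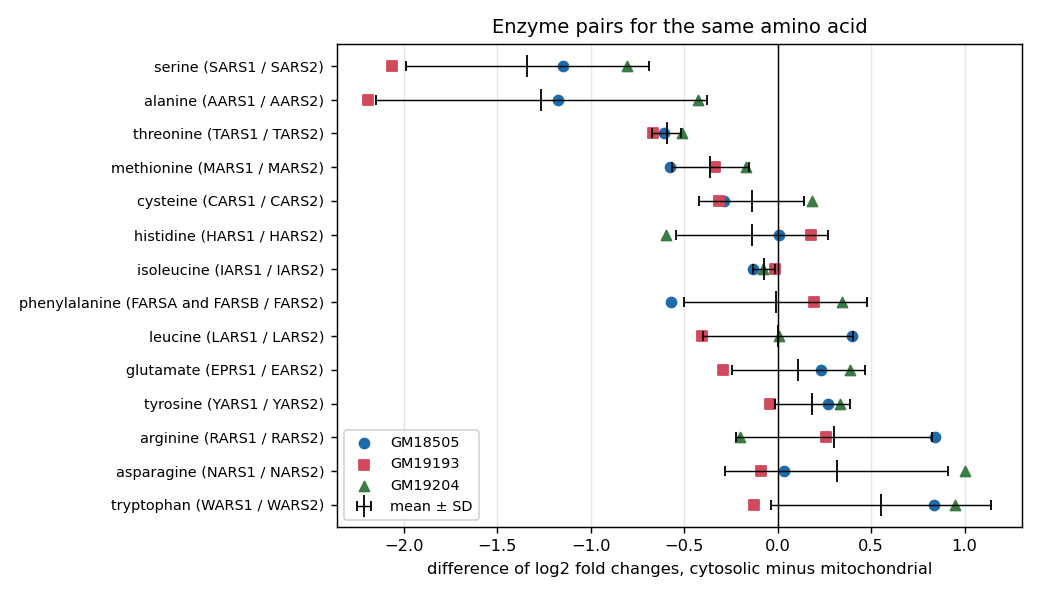
Cytosolic minus mitochondrial difference of log2 fold changes for 14 amino acids, with a symbol for each cell line and the mean ± SD over 3 lines in black; the cytosolic phenylalanyl value is the mean of FARSA and FARSB. Serine, alanine, threonine, methionine and isoleucine lie below 0 in all 3 lines for the summed libraries, and the other 9 pairs span 0.

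Synthetases fall into 2 structural classes by the fold of the catalytic domain. The 17 class I enzymes had a median log2 fold change of −2.54 on the spike-in scale, with a range from −3.00 to −2.13. The 16 class II enzymes had a median of −2.43 and a range from −2.86 to −1.004, whose upper end was AARS2 and SARS2. EPRS1, which holds a domain of each class, stood at −2.54. The 5′ leaders of the canonical transcripts were short in this set, with a median of 66 bases against 138 over 10872 protein-coding genes. An ATG upstream of the start codon was present in 10 of 37 members (27.0%) and in 40.7% of those protein-coding genes. The members with such an ATG had a median log2 fold change of −2.38 and the 27 without it −2.56, against −1.59 and −2.10 over all protein-coding genes.

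The genes were also searched for a promoter sequence they might share. The transcription factor ATF4, which is made when eIF2α is phosphorylated, is known to bind composite C/EBP-ATF elements and to act on genes of amino acid supply, cytosolic synthetases among them. The 8 letters TGATGNAA, taken as such an element, were searched on both strands in 300 bases, 250 before to 50 after the start, in promoters from RefSeq (GRCh38.p14). Of 16 cytosolic enzymes with a promoter entry, 7 held a match (43.8%), as did 1 of 14 mitochondrial enzymes (YARS2) and 0 of 3 scaffold genes. Of all 35116 promoter entries 3.62% held a match, and among 8936 protein-coding genes counted here 2.88%. LARS1, YARS1, VARS1 and AARS2 had no entry. The windows below show the 7 cytosolic matches and that of YARS2, 5′ to 3′ on the strand of the gene, with the matched letters in capitals.
IARS1, chr9:92293693-92293720, minus strand: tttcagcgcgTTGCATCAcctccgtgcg
GARS1, chr7:30594835-30594862, plus strand: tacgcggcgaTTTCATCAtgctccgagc
TARS1, chr5:33440957-33440984, plus strand: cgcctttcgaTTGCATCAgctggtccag
MARS1, chr12:57488054-57488081, plus strand: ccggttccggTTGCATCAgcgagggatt
AARS1, chr16:70289676-70289703, minus strand: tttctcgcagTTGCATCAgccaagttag
CARS1, chr11:3057408-3057435, minus strand: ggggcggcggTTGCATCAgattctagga
NARS1, chr18:57621805-57621832, minus strand: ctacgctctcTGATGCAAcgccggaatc
YARS2, chr12:32756077-32756104, minus strand: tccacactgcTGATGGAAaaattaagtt

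Of the 7 cytosolic matches, 6 had the letters TGATGCAA, read on the strand of the match, and GARS1 had TGATGAAA. The fold changes of these 7 enzymes spanned those of the class, from −3.00 for IARS1 to −2.02 for NARS1 with a median of −2.56, against −2.45 for the 9 cytosolic enzymes without a match. A match is a description of these letters and says nothing about binding.

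Differences between the cell lines, whatever the treatment, were tested with edgeR on the TMM scale, where 12.2% of all genes were called. Of the 37 members 4 were called: WARS1, MARS1, CARS2 and SARS1, a share close to that background. WARS1 had TMM-scaled counts of 906, 1249 and 1813 under control and 667, 949 and 1369 under arsenite in GM18505, GM19193 and GM19204, with an adjusted p of 0.0014. GM19204 thus had 2.0 and 2.05 times the WARS1 level of GM18505 in the 2 conditions. MARS1, the methionyl enzyme, had 538, 841 and 591 against 311, 534 and 339, with an adjusted p of 0.0089, and was highest in GM19193 in both conditions. CARS2 had 203, 136 and 114 against 167, 109 and 90.2, with an adjusted p of 0.031, and was highest in GM18505 in both. On the spike-in scale no member was called in edgeR, 3 had an unadjusted p under 0.05, and T or U libraries alone gave 2 calls each. A cell line has 1 culture per condition, so its control and arsenite cultures are its only repeats.

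Other genes that make, deliver or proofread charged tRNA fell as well on the spike-in scale, where 74.1% of all genes fell. Elongation and translocation in the cytosol gave 5 falls among 6 genes in the table with a median of −2.15, led by EEF1B2, the exchange factor of eEF1A, at −3.13 and the translocase EEF2 at −2.89. Of 7 mitochondrial factors all fell, with a median of −2.44, among them TUFM, which delivers charged tRNA, at −2.89 and the elongation factor GFM1 at −2.59. Proofreading and indirect charging gave 7 falls among 9 genes with a median of −1.86. In that list GATB, a subunit of the amidotransferase that makes mitochondrial glutaminyl-tRNA, stood at −2.94 and the selenocysteine elongation factor EEFSEC at −2.54. In tRNA maturation and export 25 of 27 genes fell with a median of −2.31, with the RNA chaperone SSB at −2.84 and the tRNA ligase RTCB at −2.74. All 20 genes of RNA polymerase III, its factors and its repressor MAF1 fell with a median of −2.03, MAF1 at −2.80 and the subunit POLR3K at −3.16.

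Relative to the bulk of genes, where 26.6% of all genes fell and 27.8% rose, each list but the mitochondrial factors held genes called in both directions. The cytosolic factors gave 3 falls and 1 rise, the mitochondrial factors 4 falls, and proofreading and indirect charging 2 falls and 2 rises. For tRNA maturation and export there were 9 falls and 2 rises among 27 genes, and for RNA polymerase III 5 falls and 1 rise among 20, so that the share of falls there was close to that of all genes. Their medians were −0.33, −0.61, −0.05, −0.52 and −0.21 in that order, beside −0.72 for the synthetases and scaffold proteins.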

How the data were processed

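Ribosome footprints of 3 lymphoblastoid cell lines, control or treated with sodium arsenite, were sequenced in 12 libraries. The deposited values are whole-number counts per gene and per spike-in oligomer: the authors removed ribosomal, transfer and small nucleolar RNA reads, mapped to GRCh38 with TopHat2, counted unique reads with featureCounts of Subread and the GENCODE release named in their methods, and dropped genes lacking a read in any library, without normalization. Tool versions and strand setting: not given in the sources used here. Unique mapping lowers genes with near-identical copies.

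T and U counts were summed per culture, except for limma. Genes were tested with edgeR 4.0.16 in R 4.3.3 (glmQLFit, glmQLFTest, two-sided, Benjamini-Hochberg over 12357 genes at 0.05) with the cell line as a block. Pairing comes from the cell line itself: its control and arsenite deviations from the group means correlated at 0.699, 0.637 and 0.641 over 8265 genes. The spike-in scale averaged log2 count less log2 nominal concentration over the 7 oligomers that reached 10 reads everywhere. DESeq2 1.42.0 and limma 3.58.1 (pseudocount 0.25, and RUVg with 3 factors, adapted from its description) were alternatives, with other scales, T or U alone, count filters of 10 and 50, no block and each line left out. Limma took the 12 libraries, so T and U of a culture counted as separate samples. For RUVg, oligomers were ranked by nominal concentration in each library, and each rank served as a control. A control could thus hold different oligomers in different pools, whereas the paper used the 16 oligomers themselves as control genes. Counting error limits low genes: the median count per member and culture was 228.

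Symbols, coordinates, exons and coding lengths came from GENCODE 44 on GRCh38 (99.9% of identifiers matched); no protein table was used, so coding length replaced the RefSeq protein length planned. The fits were tested on simulated data with the same dispersion for all genes. On a known scale edgeR called 100% of genes with a true log2 change of −2 and 44% at −1. With TMM it called 46% at −1, and the cell line test called 12% at −1 and 40% at 1. In the simulation a true log2 change of 1 was thus often missed. Its dispersion was set and not taken from these data, where WARS1 was called at −0.41 relative to the bulk. These shares therefore do not give the power of the tests on the members. Figures were drawn with matplotlib 3.10.9.

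Members and lists were chosen with earlier results of these data known. Values per culture are printed for the 4 lowest and 4 highest fold changes of the cytosolic and the mitochondrial class, the 3 scaffold proteins, any member that rose on the spike-in scale and the 3 smallest p between cell lines, and 2 genes are named from each related list by p. Levels of mRNA were not analysed here.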

Additional observations from a re-analysis of the deposited data

Results flagged for a closer look

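AARS2 had fold changes of opposite sign between the cell lines. Its log2 fold change on the spike-in scale was 0.41 in GM19193, where the T and the U library both gave a rise, −1.30 in GM18505 and −2.38 in GM19204, where both libraries gave a fall. The T and U reads in GM19193 went from 51 to 62 and from 83 to 143. The spike-in factors of the control and the arsenite culture of GM19193 had standard errors of 0.163 and 0.0733 on the log2 scale. Whether the value of 0.41 differs from 0, and whether the lines differ, was not tested, since each line has 1 culture per condition. In the same arsenite culture COL1A2 was at 97.6 CPM (counts per 1000000 gene counts) against 7.54 and 7.26 in the other 2 arsenite cultures, and the part of this culture's make-up in the AARS2 value was not tested. Groups of 3 cultures are too small to look for outlying samples.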

How the results depend on the processing

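Counts of falls on the spike-in scale stayed within 1.5 times for cytosolic enzymes and scaffold proteins under every alternative; for mitochondrial enzymes 15 became 7 with TMM in place of the spike-in scale, where AARS2 and SARS2 turned to 0.78 and 0.79, since TMM takes out the common shift. Leaving out a line gave 12 to 15 mitochondrial falls. Relative to the bulk, mitochondrial falls went from 7 to 2 with a mean count of at least 50, 4 with upper quartile scaling, 3 with TMM factors from genes averaging 50 or more counts, and 3 to 7 without a line. Mitochondrial rises, and rises of all members, went from 0 to 1 with T alone, U alone, a mean count of at least 50 or upper quartile scaling, to 2 with TMM factors from such genes, and 0 to 1 without a line. Without the block for the cell line, that is without the pairing, 35 members fell on the spike-in scale and 19 relative to the bulk, and the cytosolic median below all genes went from −0.75 to −0.67.

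The median log2 fold change of a class minus that of all genes was, on the spike-in scale, −0.75 for cytosolic enzymes, with −0.69 for U alone, −0.70 and −0.44 for mean counts of at least 10 and 50, −0.71 for RUVg and −0.72 to −0.70 without a line. For mitochondrial enzymes it was −0.53, with −0.21 at a mean count of at least 50, −0.69 for unnormalized limma, −0.69 for RUVg and −0.68 to −0.63 without a line. For scaffold proteins it was −1.09, with −1.52 for T alone. Relative to the bulk the cytosolic value of −0.75 became −0.67 for U alone, −0.69 and −0.43 for mean counts of at least 10 and 50 and −0.71 to −0.69 without a line. The mitochondrial value of −0.53 became −0.22 at a mean count of at least 50 and −0.68 to −0.62 without a line, and the scaffold value of −1.07 became −1.46 for T alone. Fewer genes with low counts enter the median of all genes under these filters.

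Members called between cell lines went from 4 to 0 on the spike-in scale and to 2 with T or U alone. The cytosolic median level was 4.54 times the mitochondrial, 5.92 times without division by coding length and 4.20 to 4.85 times without a line. The shares and the median of the pair differences moved by less than the spread between lines; so did the mitochondrial share without AARS2 and SARS2, at a mean log2 ratio of −0.77, an alternative chosen after seeing the data. Of the 14 pairs, 3 moved by over 1 SD with T alone and 1 with U alone. Of the named genes' values, 274 on the spike-in scale and 197 relative to the bulk kept direction and side of the threshold, 21 and 26 lost the threshold and 9 relative to the bulk passed it. Relative to the bulk 5 changed sign without a call on either side: NARS1 from −0.20 to 0.0645 at a mean count of at least 50 and 0.0644 with TMM factors from such genes, and TARS2 from −0.14 to 0.125, 0.125 and, with upper quartile scaling, 0.0235. Low counts limit PARS2, SARS2 and EEF1E1, with as few as 3 reads in a culture.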
